A study of Mus musculus with 8 samples.

Results

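The ATF4 integrated stress response genes are 38 mouse genes chosen by name, with earlier results of these data known. They run from the factor that drives the response to the enzymes, feedback regulators and secreted proteins it is known to control. All 38 were found in a count table of 55367 genes, and 37 had at least 10 counts in at least 3 of the 8 libraries and were tested among the 12137 genes that met this limit. The remaining member, Fgf21, which encodes a secreted stress hormone, had 3 to 7 counts in every library and was not tested.

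The libraries were made from fibroblastic reticular cells (FRCs), the stromal cells that form the scaffold of the lymph node, after 4 days in 1 of 4 media. Vehicle was RPMI medium with water, the control for lactic acid (LA), and LA was RPMI with 15 mM lactic acid. CCM was RPMI conditioned by the FRCs themselves, and TCM was RPMI conditioned by B16.F10 mouse melanoma cells. All media were supplemented with fetal bovine serum. Each group had 2 libraries, described by the study as biological replicates. All groups share 1 FRC line, derived from lymph nodes of C57BL/6 mice carrying the p53ER fusion on both alleles, so every library stands for the same line and for the same engineered p53 background. Sesn2, Gadd45a and Gdf15 are known targets of p53 as well as of stress kinases. In RNA from whole cultures, fewer cells expressing a gene and less RNA per cell cannot be told apart.

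The integrated stress response starts when a kinase such as PERK (Eif2ak3), which senses unfolded protein in the endoplasmic reticulum, or GCN2 (Eif2ak4), which senses uncharged tRNA, phosphorylates the initiation factor eIF2alpha. General translation then slows while the Atf4 mRNA is translated more, so the activity of ATF4 is set largely at the level of protein and its mRNA is only a partial readout. ATF4 binds composite sites with C/EBP partners and raises genes for amino acid synthesis and uptake, for charging tRNA and for feedback on the pathway. In fibroblasts, serine and proline made under ATF4 feed nucleotide and collagen synthesis.

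Total counts were 8232889 to 14107964 per library, and replicate libraries differed by more than sampling noise in every group, with a chi-square per degree of freedom of 3.28 in CCM and 19.8 in TCM as the lowest and highest values. Of 10 FRC markers, 6 passed the count limit in 3 libraries, among them Pdpn and Vcam1 with 1023 to 1845 and 1190 to 2177 counts. Pdgfrb, a fibroblast receptor gene, had 4976 and 4111 counts in CCM and 2538 and 2912 in TCM and was called lower, whereas Pdpn was called higher (edgeR), and Thy1, Icam1 and Il7 had at most 16, 8 and 26 counts. Ptprc, which encodes the leukocyte antigen CD45, had 0 counts in all 8 libraries, which allows up to 0.211 to 0.354 CPM (counts scaled to a common library size), a limit that covers counting error only. Another leukocyte marker, Cd68, had 2 to 22 counts. Among the endothelial markers Pecam1 had 4 to 9 counts, Tek 6 to 65 and Emcn 314 to 884. The FRC chemokine genes Ccl21a and Ccl19 had 0 and at most 1. The 8 melanocyte and melanoma markers summed to 2.29 and 2.74 CPM in TCM and to 1.81 to 3.66 CPM in the other 6 libraries. Of them Tyr was at 0 in all libraries, and Tyrp1 had 6 and 3 counts in TCM and 0 elsewhere. The 6 endothelial markers summed to 47.4 and 50.8 CPM in TCM and to 62.5 and 64.3 CPM in CCM. The part of other cells' RNA in the values below was not tested.

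Among the 37 tested members, 13 were lower in FRCs cultured in TCM than in CCM and none was higher. Without CCM replicate 1 fewer members were called, and fewer genes over all. Levels here are TMM-scaled CPM, TMM being edgeR's scaling for library composition, and a gene was called changed at an adjusted P under 0.05 with a log2 fold change (FC) beyond 0.39 in edgeR's quasi-likelihood test. The 13 fell in 5 of the roles: the transcription factors Atf5, Ddit3, Cebpg and Nupr1, the feedback genes Trib3, Chac1 and Sesn2, the serine and one-carbon enzymes Psat1, Psph, Shmt2 and Mthfd2, the alanine enzyme Gpt2 and the transsulfuration enzyme Cbs. Across all genes tested, 19.1% were called in either direction and 10.2% were called lower. For 7 of the 13 the log2 FC was beyond -1. All 15 members with an unadjusted P under 0.05 were lower, and DESeq2 called the same 13 and none higher. The median log2 FC of the 37 was -0.25, against 0.00 over all genes, and 32 of the 37 values were below 0. With 2 libraries per group an exact permutation test cannot go below P = 0.333 for a single gene, so all tests rest on a spread estimated across genes and groups.

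The summed level of all 38 genes was lowest in TCM. It was 6852 and 5961 CPM in vehicle, 6010.3 and 6110.0 CPM in CCM, 6553 and 5707 CPM in LA, and 4939 and 4731 CPM in TCM. Both TCM libraries were lowest, and the other 3 groups overlapped. For 24 of the 37 members, both TCM libraries lay below the other 6 libraries, a pattern held by 16.7% of all genes tested, and no member showed the reverse. TCM had the lowest mean for 32 members. The highest mean was in vehicle for 21 members, in LA for 8, in CCM for 6 and in TCM for 2. These counts of lowest and highest means were not taken over all genes. Vehicle replicate 1 was above replicate 2 for 33 of the 37 members, against 50.3% of all genes. Without it the members' median log2 FC for CCM against vehicle was 0.01, and -0.10 with it.

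**Figure D1:**
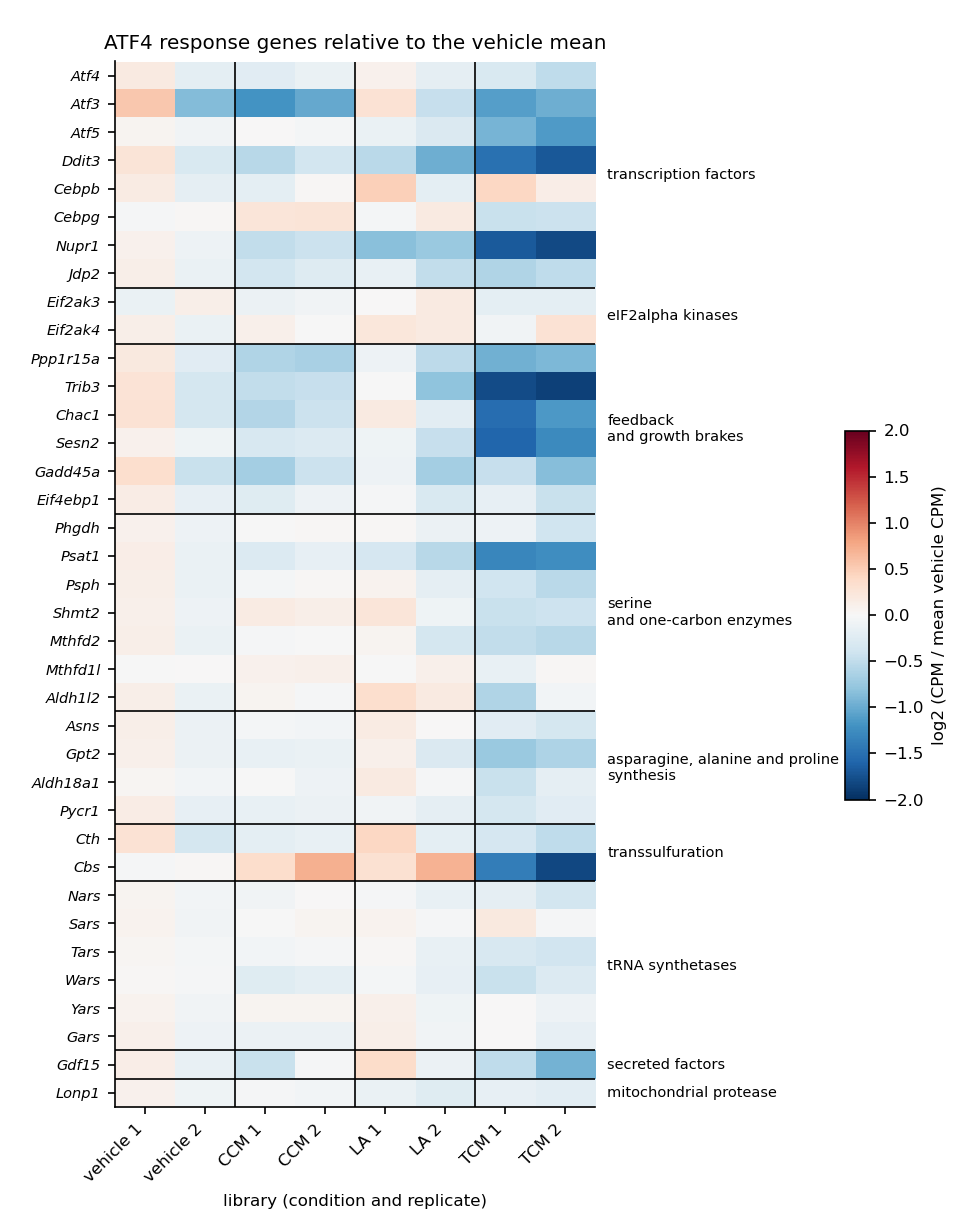
The 37 tested members in rows, grouped by role, and the 8 libraries in columns, with colour showing log2 of CPM over the mean vehicle CPM (blue lower, red higher, scale cut at -2 and 2). The 2 TCM columns are the bluest for most transcription factors, feedback genes and serine enzymes, and nearly white for the tRNA synthetases.

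Atf4 itself was not called by edgeR in any comparison. Its level was 487 and 375 CPM in vehicle, 368 and 395 CPM in CCM, 456 and 379.9 CPM in LA and 350.4 and 304 CPM in TCM. Both TCM libraries were the lowest, by a margin smaller than the gap between the vehicle libraries. Against vehicle the log2 FC of TCM was -0.40 ± 0.14 (SE) with an adjusted P of 0.0727 (edgeR), which became 0.0445 by DESeq2, 0.0287 without TMM factors and 0.0419 without vehicle replicate 2. The log2 FC of TCM against CCM was -0.22 ± 0.14 (SE), with a 95% confidence interval of -0.53 to 0.09 and an adjusted P of 0.295 (edgeR). Per kilobase of exon, Atf5 and Atf4 had the highest levels of the members, at means of 199.7 and 165 CPM per kb over the 8 libraries, with Gars at 134, Asns at 133 and Nars at 126 next. At the other end stood Cbs with 0.27 and Fgf21 with 0.517 CPM per kb.

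Further transcription factors of the response were lower in TCM than in CCM. Atf5, a relative of ATF4 that is itself translated under stress and serves the mitochondrial branch, had 496 and 455 CPM in vehicle, 480.4 and 461 CPM in CCM, 434 and 391 CPM in LA, and 249 and 218 CPM in TCM. The TCM libraries stood far below the other 6, which lay close together. The log2 FC against CCM was -1.01 ± 0.11 (SE) with an adjusted P of 0.000103 (edgeR), and TCM stood at 49.6% of CCM.

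Nupr1, a small stress-induced chromatin protein, separated the groups most cleanly. It had 57.0 and 49.9 CPM in vehicle, 37.99 and 39.8 CPM in CCM, 29.9 and 31.8 CPM in LA and 16.6 and 15.3 CPM in TCM. No 2 groups overlapped, and the order ran from vehicle through CCM and LA to TCM. TCM against CCM gave a log2 FC of -1.28 ± 0.12 (SE) and an adjusted P of 4.88e-05 (edgeR).

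Ddit3, which encodes the pro-apoptotic factor CHOP, had 65.0 and 44.0 CPM in vehicle, 37.2 and 42.1 CPM in CCM, 37.5 and 27.8 CPM in LA, and 19.5 and 16.9 CPM in TCM. The TCM libraries were again the lowest, whereas those of CCM and LA overlapped. Its log2 FC against CCM was -1.12 ± 0.20 (SE), with an adjusted P of 0.00284 (edgeR) that was 0.0558 without TCM replicate 2 and ran from 1.5e-13 to 0.0558 over all alternatives. The annotation holds 2 genes under this symbol, overlapping each other and Mars on the opposite strand, and whether the counting used strand is not given in the sources used here, so reads of these genes may have been split.

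Cebpg, a dimerisation partner of ATF4, differed in that CCM was its highest group. It had 87.2 and 89.8 CPM in vehicle, 104 and 106 CPM in CCM, 86.6 and 99.97 CPM in LA, and 65.4 and 65.8 CPM in TCM. The log2 FC of TCM was -0.68 ± 0.10 (SE) against CCM and -0.43 ± 0.10 (SE) against vehicle, both called by edgeR with adjusted P of 0.000712 and 0.0115.

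The remaining factors were not called against CCM. Cebpb, another C/EBP partner that many cytokines induce, had 53.5 and 62.3 CPM in CCM and 81.8 and 67.6 CPM in TCM, and its log2 FC of 0.37 was the highest of all members. Atf3, an early stress repressor, was low and scattered, with 53 and 24 counts in vehicle, 21 and 21 in CCM, 42 and 42 in LA and 18 and 19 in TCM. Its interval for TCM against CCM ran from -1.04 to 1.19 on the log2 scale, so a 2-fold change in either direction could not be told from none at this depth. Jdp2, a repressor of AP-1 sites, had 133 and 112 CPM in vehicle, 95.4 and 102 CPM in CCM, 110.3 and 87.2 CPM in LA and 81.1 and 86.0 CPM in TCM.

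**Figure D2:**
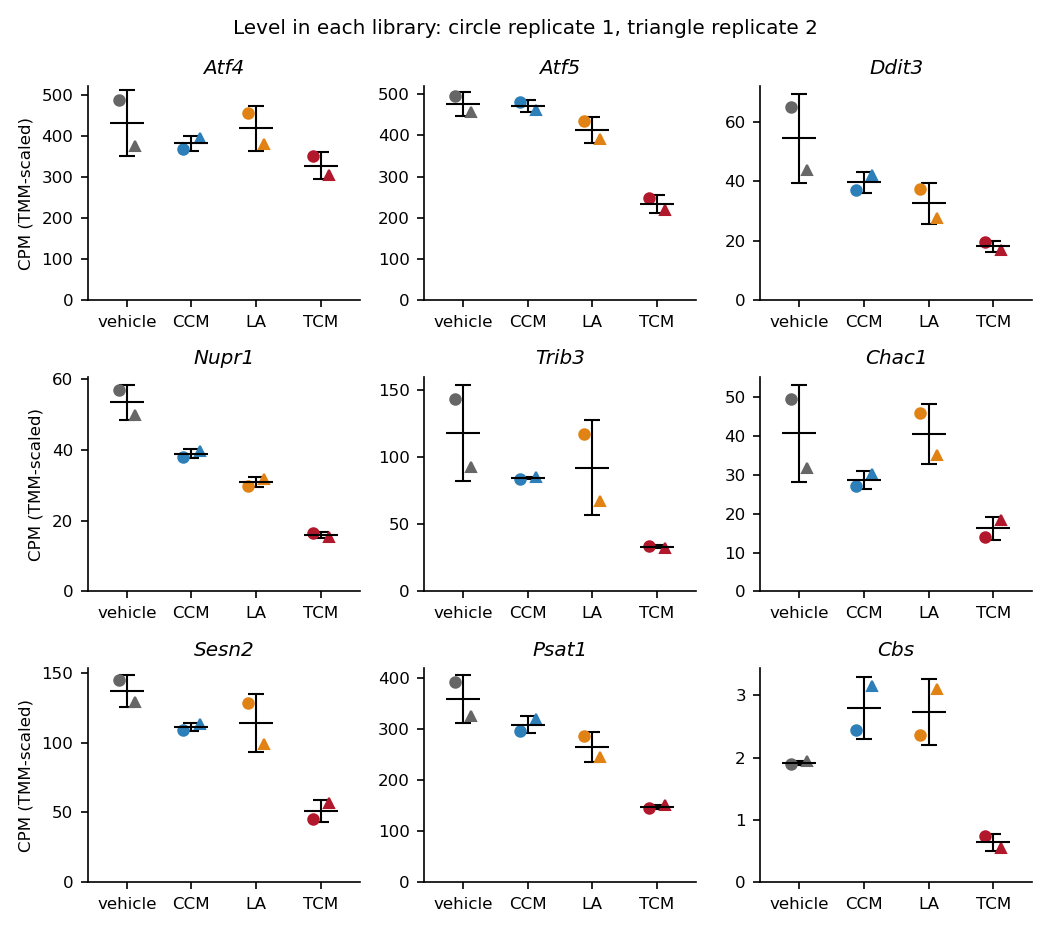
TMM-scaled CPM of Atf4 and 8 members called lower in TCM than in CCM, in each library (circle replicate 1, triangle replicate 2), with the mean as a bar and the SD of the 2 libraries as whiskers; every axis starts at 0. The TCM points are the lowest in all 9 panels, with a small gap for Atf4 and a wide one for Atf5, Trib3, Sesn2 and Psat1, and for Nupr1 the 4 groups do not overlap.

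The genes that switch off the response or slow growth gave the next group of low values. Trib3, a pseudokinase that ATF4 and CHOP induce and that binds ATF4 in return, had 143 and 92.4 CPM in vehicle, 83.8 and 85.1 CPM in CCM, 117 and 67.0 CPM in LA, and 34.0 and 32.3 CPM in TCM. The 2 TCM libraries nearly coincided, and the vehicle and LA libraries each spread widely. TCM against CCM gave a log2 FC of -1.35 ± 0.25 (SE) with an adjusted P of 0.00328 (edgeR), and the estimate without TCM replicate 1 or without TCM replicate 2 was -1.39 or -1.31, with adjusted P of 0.185 or 0.177. Over all alternatives the adjusted P of Trib3 ran from 9.07e-08 to 0.185.

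Sesn2, a sensor of leucine that restrains mTORC1, had 145 and 129 CPM in vehicle, 109 and 113 CPM in CCM, 129 and 99.2 CPM in LA, and 45.7 and 56.9 CPM in TCM. CCM and LA overlapped, vehicle lay above both, and no library came near the TCM pair. The log2 FC against CCM was -1.12 ± 0.14 (SE), with an adjusted P of 0.000313 (edgeR).

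Chac1, which degrades glutathione, had 49.5 and 31.9 CPM in vehicle, 27.0 and 30.3 CPM in CCM, 46.0 and 35.1 CPM in LA, and 14.1 and 18.3 CPM in TCM. TCM was lowest and CCM lay below LA. The log2 FC was -0.82 ± 0.22 (SE) with an adjusted P of 0.0237 (edgeR), and this call was lost when any 1 of the 4 CCM and TCM libraries was left out (adjusted P 0.0628 to 0.233, and down to 7.9e-07 over the other alternatives).

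Ppp1r15a encodes GADD34, the phosphatase subunit that reverses eIF2alpha phosphorylation. It had 48.4 and 35.8 CPM in vehicle, 27.9 and 27.0 CPM in CCM, 39.1 and 29.3 CPM in LA, and 21.6 and 22.7 CPM in TCM. Both conditioned media gave tight pairs below vehicle, and TCM against CCM, with a log2 FC of -0.31 ± 0.17 (SE), was not called. Gadd45a, a growth arrest gene, and Eif4ebp1, a brake on cap-dependent translation, had log2 FC of -0.09 and -0.13 and were not called either.

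The member kinases Eif2ak3 and Eif2ak4 showed no call in any comparison by edgeR or DESeq2, and neither had an unadjusted P under 0.05. Another kinase gene, Eif2ak2, is not a member and was called higher in TCM than in CCM, as given below. Eif2ak3 (PERK) had 55.0 and 56.7 CPM in CCM and 51.9 and 52.3 CPM in TCM. Eif2ak4 (GCN2) had 43.6 and 40.3 CPM in CCM and 38.6 and 49.6 CPM in TCM. Their log2 FC intervals for TCM against CCM were -0.35 to 0.15 and -0.23 to 0.37. Phosphorylation of eIF2alpha and ATF4 protein cannot be read from RNA.

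Serine synthesis and the mitochondrial folate pathway, which turn a glycolytic intermediate into serine, glycine and folate-bound single carbons, were represented by 7 members, and all 7 estimates were below 0 in TCM against CCM. Of them, 4 were called. The call of largest size was Psat1, the transaminase at the second step of serine synthesis, with 393 and 327 CPM in vehicle, 297 and 321 CPM in CCM, 286 and 245 CPM in LA, and 146 and 151 CPM in TCM. The TCM level was 48.1% of CCM, a log2 FC of -1.06 ± 0.12 (SE) with an adjusted P of 0.000137 (edgeR). The flanking steps had smaller estimates. Phgdh, the first enzyme, had 221 and 227 CPM in CCM and 208 and 169 CPM in TCM, a log2 FC of -0.25 ± 0.12 (SE) with an adjusted P of 0.159 (edgeR).

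Psph, the phosphatase that ends serine synthesis, had 69.8 and 58.5 CPM in vehicle, 62.5 and 64.9 CPM in CCM, 67.3 and 56.4 CPM in LA, and 48.7 and 44.0 CPM in TCM. Shmt2, which converts serine to glycine in mitochondria, had 209.9 and 183 CPM in vehicle, 219.7 and 213 CPM in CCM, 234 and 185 CPM in LA, and 144 and 148 CPM in TCM. Mthfd2, the next mitochondrial folate enzyme, had 186 and 155 CPM in vehicle, 169 and 170.2 CPM in CCM, 178 and 134 CPM in LA, and 121 and 116 CPM in TCM. In all 3 genes the TCM pair was tight and lay below every other library. Their log2 FC against CCM were -0.46 ± 0.13, -0.57 ± 0.12 and -0.51 ± 0.14 (SE), with adjusted P of 0.0247, 0.0062 and 0.0198 (edgeR). Without CCM replicate 1 the adjusted P of Shmt2 was 0.0534, the highest over its alternatives. The call of Psph was lost without CCM replicate 1, CCM replicate 2 or TCM replicate 2 (adjusted P up to 0.134), and that of Mthfd2 without any 1 of the 4 CCM and TCM libraries (adjusted P up to 0.0951). Mthfd1l and Aldh1l2, the later mitochondrial folate enzymes, had log2 FC of -0.16 and -0.32 and were not called, and the TCM libraries of Aldh1l2 were far apart at 161 and 236 CPM.

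Of the 4 members for asparagine, alanine and proline, Gpt2 alone was called. Gpt2, the mitochondrial alanine transaminase, had 134 and 116 CPM in vehicle, 113 and 114 CPM in CCM, 134 and 103 CPM in LA, and 74.9 and 81.3 CPM in TCM. Its log2 FC was -0.53 ± 0.13 (SE) with an adjusted P of 0.0139 (edgeR), and this call was lost without CCM replicate 1, CCM replicate 2 or TCM replicate 1 (adjusted P up to 0.0772). Asns, asparagine synthetase and a classical ATF4 target, had 368 and 364 CPM in CCM and 323 and 297 CPM in TCM, a log2 FC of -0.24 ± 0.11 (SE) that was not called. The proline enzymes Aldh18a1 and Pycr1 had log2 FC of -0.25 and -0.16.

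Cbs, the first enzyme of transsulfuration, showed the largest fall at the lowest level. It had 17 and 21 counts in vehicle, 29 and 33 in CCM, 20 and 44 in LA and 7 and 5 in TCM. The TCM libraries were under the limit of 10 counts that the others passed, so the gene entered the test through the groups where it was high. Of the 36 members with at least 10 counts in every library, 12 were called, where 2121 of 11168 genes were called. The log2 FC was -2.09 ± 0.38 (SE) with an adjusted P of 0.00263 (edgeR). Cth, the second enzyme of the same pathway, had 27.2 and 28.3 CPM in CCM and 24.7 and 22.0 CPM in TCM and was not called.

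None of the 6 tRNA synthetase members was called in any comparison by the edgeR test on all 8 libraries with TMM factors. Without those factors edgeR called Tars lower in TCM than in CCM, and Tars and Wars lower in TCM than in vehicle. Together Nars, Sars, Tars, Wars, Yars and Gars summed to a mean of 1973 CPM in vehicle, 1915 in CCM, 1936 in LA and 1782 in TCM. Their log2 FC of TCM against CCM ran from -0.31 for Tars to 0.07 for Sars, with 2 of 6 at an unadjusted P under 0.05. Tars, threonyl-tRNA synthetase, had 318 and 325 CPM in CCM and 266 and 254 CPM in TCM. Its adjusted P of 0.0427 (edgeR) passed while its fold stayed within the threshold, the single member with that outcome in TCM against CCM. DESeq2 called none of the 6 in this comparison. In TCM against vehicle that outcome held for Tars and Wars, with adjusted P of 0.027 and 0.0305 (edgeR).

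The secreted factor Gdf15, a hormone of cellular stress, had 12.5 and 10.3 CPM in vehicle, 8.34 and 11.2 CPM in CCM, 14.6 and 10.5 CPM in LA, and 7.999 and 5.89 CPM in TCM. TCM was lowest, but TCM replicate 1 lay close to CCM replicate 1 and the log2 FC of -0.48 ± 0.24 (SE) was not called. Lonp1, a mitochondrial matrix protease, had a log2 FC of -0.15 with an interval of -0.36 to 0.06.

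**Figure D3:**
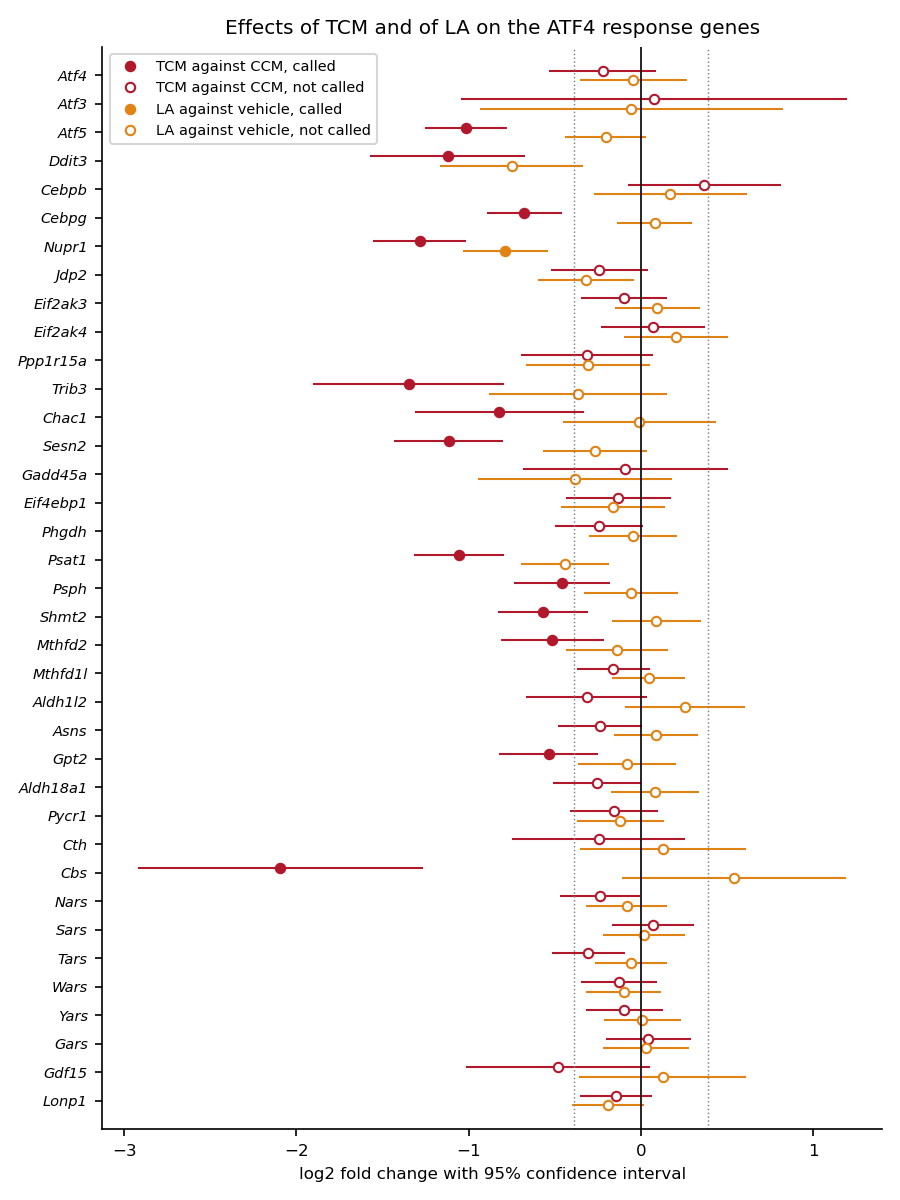
The log2 FC of each tested member for TCM against CCM (red) and LA against vehicle (orange), with 95% confidence intervals as lines, filled points for called members and dotted lines at the fold threshold of 0.39. The 13 filled red points all lie left of 0, from -0.46 for Psph to -2.09 for Cbs, and the only filled orange point is Nupr1 at -0.79.

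A known ATF4 site was looked for in the 250 bases before each RefSeq start (GRCm38.p6). The motif was TGATGNAA, the composite of a C/EBP and an ATF4 site, read on both strands. It was present in 9 of the 33 members with a RefSeq promoter (27.3%) and in 3.91% of all 27025 genes with one, and a cyclic AMP response element, TGACGTCA, in 1 member (Ppp1r15a) and 1.77% of genes. The 9 sites are shown because they give the spelling of the element, 30 bases each with the motif in capitals on the strand where it reads forward, and they were chosen after the values were seen.
Asns: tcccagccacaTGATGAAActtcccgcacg
Atf3: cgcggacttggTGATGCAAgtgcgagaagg
Chac1: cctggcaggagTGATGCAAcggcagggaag
Fgf21: gcctggacggaTGATGCAAtgggggggtct
Gars: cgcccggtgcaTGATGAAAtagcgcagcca
Jdp2: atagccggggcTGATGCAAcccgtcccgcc
Nupr1: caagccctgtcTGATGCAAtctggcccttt
Pycr1: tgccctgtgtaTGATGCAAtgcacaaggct
Tars: agctaaccagcTGATGCAAcgggactcctg
The spelling was TGATGCAA in 7 and TGATGAAA in 2. Of the 8 motif genes that were tested, 2 were called lower in TCM than in CCM (Nupr1 and Chac1), and of the 24 tested members whose promoter window lacks the motif, 11 were. These counts carry no test. A match describes the sequence only, and the absence of a match in this window says nothing of binding elsewhere.

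The whole windows of both called genes are given next, 5′ to 3′ on the strand of the gene, where the element reads as its reverse complement, TTGCATCA, in capitals. That of Nupr1 is chr7:126625471-126625720 on the minus strand, with the element 110 bases before the start. That of Chac1 is chr2:119350992-119351241 on the plus strand, with the element 193 bases before the start.
Nupr1: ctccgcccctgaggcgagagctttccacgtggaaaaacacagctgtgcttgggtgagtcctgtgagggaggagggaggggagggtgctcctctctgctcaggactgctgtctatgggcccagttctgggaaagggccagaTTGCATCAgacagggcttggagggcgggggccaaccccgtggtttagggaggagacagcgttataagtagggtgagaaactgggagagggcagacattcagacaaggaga
Chac1: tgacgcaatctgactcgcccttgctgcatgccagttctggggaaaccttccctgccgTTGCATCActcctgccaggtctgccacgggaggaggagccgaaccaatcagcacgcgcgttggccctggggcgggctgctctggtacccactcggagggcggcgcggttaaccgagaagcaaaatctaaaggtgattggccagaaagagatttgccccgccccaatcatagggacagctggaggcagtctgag

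In the annotation (GENCODE M21, GRCm38), 17 of the 38 members overlap no other gene and 21 overlap at least 1 on either strand. The 13 called members include 5 without any overlap, namely Nupr1, Trib3, Chac1, Gpt2 and Cbs. Psat1, Atf5, Psph and Shmt2 lie opposite another gene, and Sesn2, Mthfd2 and Cebpg share their strand with another.

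LA against vehicle, the comparison that asks what lactic acid does without other tumor factors, called 1 of the 37 members, with Nupr1 lower, where 2.55% of all genes were called. From the values above, both LA libraries of Nupr1 lay under both vehicle libraries, at 58.0% of their level. The log2 FC was -0.79 ± 0.11 (SE) with an adjusted P of 0.00547 (edgeR). It was 0.0635 without vehicle replicate 1 and 0.0589 without LA replicate 1, and from 6.44e-07 to 0.0635 over all alternatives. In all, 4 members had an unadjusted P under 0.05. Next to Nupr1 stood Ddit3 and Psat1, whose log2 FC of -0.75 ± 0.19 and -0.44 ± 0.12 (SE) had adjusted P of 0.07 and 0.0799 by edgeR and were called by DESeq2, which gave 3 calls. The median log2 FC of the members was -0.06, with 22 of 37 below 0.

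Vehicle replicate 1 and LA replicate 1 weighed on this comparison. For 32 of the 37 members, replicate 1 was above replicate 2 in vehicle and also in LA, which held for 33.0% of all genes tested. The gap was wide for Atf3, Trib3, Gadd45a, Cth, Chac1 and Ddit3, and Eif2ak3, Cebpg, Mthfd1l and Cbs ran the other way in both groups. In CCM, replicate 1 was the higher for 9 members, and in TCM for 21. Without vehicle replicate 1 the members' median log2 FC for LA against vehicle was 0.05, and without vehicle replicate 2 it was -0.16. What sets these libraries apart was not tested.

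**Figure D4:**
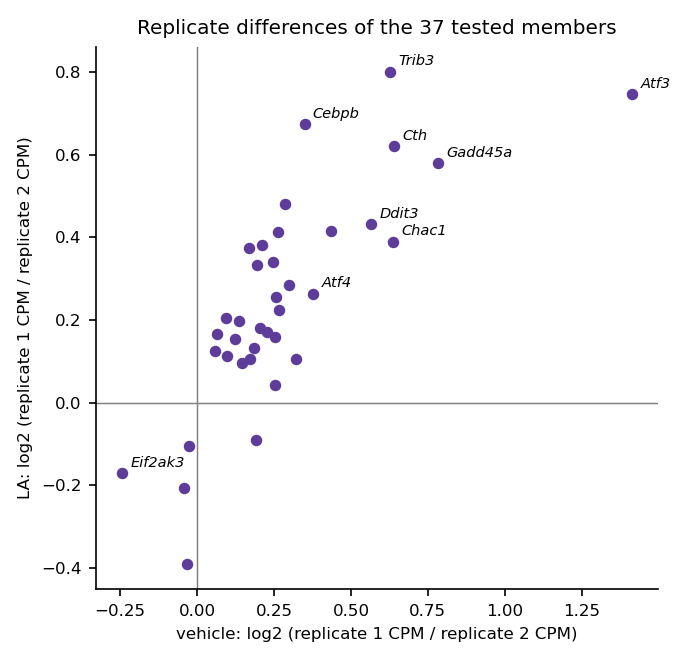
Each point is 1 tested member, placed by log2 of replicate 1 over replicate 2 (CPM) in vehicle on the horizontal axis and in LA on the vertical axis. Of the 37 points, 32 lie in the upper right part, above 0 on both axes, with Atf3 farthest out in vehicle and Trib3 in LA.

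The 2 kinds of exposure have their own controls, so their effects were compared directly, as the effect of TCM against CCM minus that of LA against vehicle. This difference was called for 6 members, all with TCM lower, where 10.4% of all genes were called and 6% were called lower. The log2 difference was -2.63 ± 0.48 (SE) for Cbs, -0.85 ± 0.20 for Sesn2, -0.81 ± 0.15 for Atf5, -0.76 ± 0.14 for Cebpg, -0.66 ± 0.17 for Shmt2 and -0.61 ± 0.16 for Psat1. The Cbs estimates had opposite signs, with -2.09 for TCM and 0.54 ± 0.30 (SE) for LA. The LA estimate was not called, with an interval of -0.11 to 1.19 and an adjusted P of 0.466 (edgeR). Cbs had 7 and 5 counts in TCM and entered the test through the other groups. Nupr1 and Ddit3, which were low in both exposures, had differences of -0.50 and -0.37 whose adjusted P were 0.0845 and 0.457 (edgeR), with intervals of -0.86 to -0.13 and -0.98 to 0.24. DESeq2 called the same 6 and Trib3. Without vehicle replicate 2, CCM replicate 1, CCM replicate 2 or LA replicate 1, fewer members were called, and fewer genes over all.

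CCM against vehicle gave no call by edgeR among the 37 members, and none by DESeq2, where 1.3% of all genes were called by edgeR. At an unadjusted P under 0.05 there were 8. Nupr1 and Ppp1r15a were nearest, with log2 FC of -0.46 ± 0.11 and -0.61 ± 0.17 (SE) and adjusted P of 0.0691 and 0.105 (edgeR).

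TCM against vehicle, which shares its TCM libraries with the first comparison, called 15 members lower and none higher, where 17.5% of all genes were called and 8.9% were called lower. They were the 13 above with Jdp2 and Ppp1r15a, whose log2 FC were -0.55 ± 0.13 and -0.92 ± 0.17 (SE). DESeq2 also called 15, with Atf4 in place of Cbs. The TCM libraries of both lay below all 6 others. Trib3 stood at 28.2%, Nupr1 at 29.9%, Ddit3 at 33.5% and Sesn2 at 37.5% of vehicle. Without vehicle replicate 1, fewer members were called, and fewer genes over all.

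Genes of the same and neighbouring pathways were read from 7 lists for TCM against CCM. The lists, like the members, were chosen with earlier results of these data known. Of 20 other reported ATF4 targets, 9 were called lower and none higher, with a list median of -0.34. Over all genes, 19.1% were called in either direction and 10.2% were called lower. Ddit4, an inhibitor of mTORC1, had 157 ± 11.8 CPM (SD, n = 2) in CCM and 86.7 ± 5.57 in TCM, a log2 FC of -0.86. The neutral amino acid transporter Slc1a4 had 103 ± 3.41 and 60.2 ± 3.84 CPM, a log2 FC of -0.78, and the glycine transporter Slc6a9 had 68.0 ± 2.47 and 39.6 ± 6.21 CPM, a log2 FC of -0.78. Slc1a4 was also the 1 gene of this list called lower in LA against vehicle, with a log2 FC of -0.46.

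Lists for other arms of the stress response were read against the same 19.1% called over all genes. Of 16 endoplasmic reticulum targets of ATF6 and XBP1, 3 were called higher and none lower. They were Pdia6 and Sdf2l1, which help proteins fold, and Atf6 itself, with log2 FC of 0.57, 0.64 and 0.47. The share of 18.8% is near that called in either direction over all genes, where 46.3% of the calls were higher. The list median was 0.19, with 14 of 16 estimates above 0, where 50.0% of all genes were below 0. Of 15 genes for eIF2 and its control, 1 was called, the interferon-induced kinase Eif2ak2, at a log2 FC of 0.73 from 68.2 ± 4.09 to 113 ± 18.9 CPM (SD, n = 2). None of 8 mitochondrial chaperones and proteases was called by edgeR, with 1 at an unadjusted P under 0.05. Among the other synthetases, 1 of 14 cytoplasmic genes was called lower (Aars, -0.62) and 1 of 17 mitochondrial genes higher (Fars2, 0.62).

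Genes for serine, folate and proline outside the members formed a list of 11 tested genes. In TCM against CCM its calls included Tyms, which makes thymidylate, with a log2 FC of -0.98, and Shmt1, the cytosolic counterpart of Shmt2, with a log2 FC of -0.66.

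**Figure D5:**
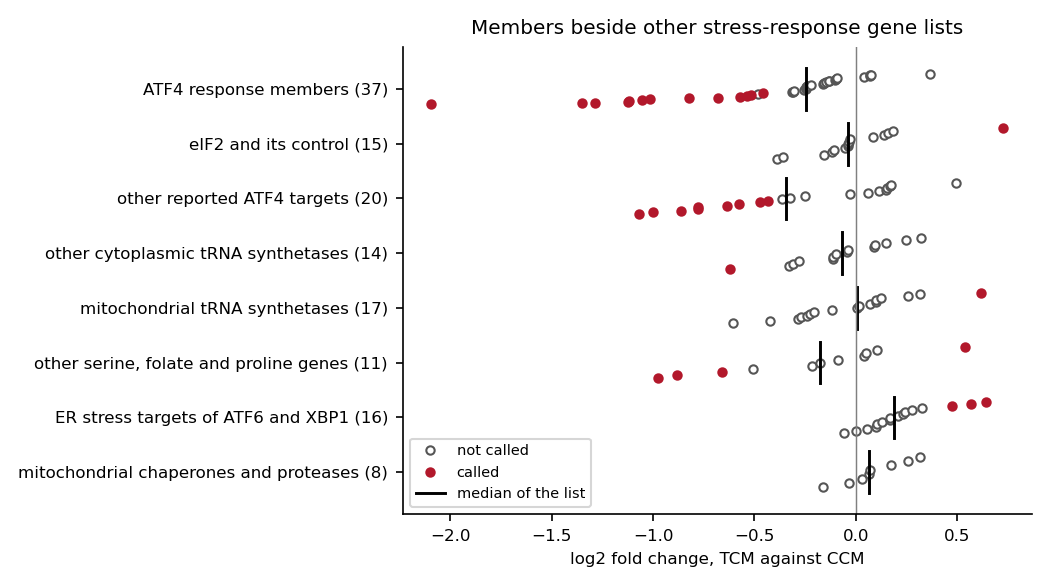
The log2 FC of TCM against CCM for each tested gene of the member list and of 7 related lists, with red points for called genes and a bar at each list's median; the number of tested genes stands beside the name. Red points lie left of 0 for the members and for the other ATF4 targets and right of 0 for the targets of ATF6 and XBP1, where the medians are -0.25, -0.34 and 0.19.

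Without the TMM factors the median log2 FC of all genes in TCM against CCM was -0.14, and 24.2% of the calls over all genes were higher, against 46.3% with them. The members' median was then -0.39, and 15 were called, all lower, where 2690 of 12137 genes were called. No setting tried called a member higher in any of the 5 comparisons.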

How the data were processed

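Directional poly(A) libraries were sequenced on an Illumina instrument. Per the submitters' processing notes, the tools were STAR 2.7.0a, featureCounts of Subread 2.0.1 and DESeq2 1.32.0, with GRCm38. The table used was deposited as raw read counts for each gene. Another deposited table, whose name says normalized, equals those counts at 100% of values for 12137 genes and served for that check alone. Whether strand was used in counting is not given in the sources used here.

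Genes reaching 10 counts in 3 or more of the 8 libraries were fitted with edgeR 4.0.16 (R 4.3.3) by the quasi-likelihood test on TMM-scaled counts, all 4 groups together, with Benjamini-Hochberg adjustment over all tested genes. A call needed an adjusted P under 0.05 and a log2 FC beyond 0.39. All tests were 2-sided. Alternatives included DESeq2 1.42.0, other scalings, filters and thresholds, a replicate block and each library left out. The scripts were tested on simulated data.

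The members and all lists were chosen with earlier results of these data known. Every member is named, with values in every library for called members and Atf4, and for each related list at most 3 calls of smallest adjusted P, besides single calls that complete a count. Some calls of the serine, folate and proline list are not reported here. For promoters the rule was up to 6 called members with the motif. Total counts limit precision: 3 counts correspond to 0.211 to 0.354 CPM. Replicates are described as biological. P values set group differences against a spread estimated across genes and groups of these libraries, and reach no further than these libraries.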

Additional observations from a re-analysis of the deposited data

Results flagged for a closer look

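In 6 members the effect of TCM against CCM differed from that of LA against vehicle by edgeR's test of the difference itself. The log2 difference was -2.63 for Cbs (adjusted P 0.00522), from -2.09 in TCM and 0.54 in LA. Cbs had 7 and 5 counts in TCM and entered the test through the other groups. With at least 10 counts in every library it was not tested, and 5 members were called, where 1217 of 11168 genes were called. The log2 difference was -0.756 for Cebpg (adjusted P 0.00534), from -0.68 and 0.08. Atf5 gave -0.808 (adjusted P 0.00587), from -1.01 and -0.21, and Sesn2 gave -0.847 (adjusted P 0.0197), from -1.12 and -0.27. The values were -0.659 for Shmt2 (adjusted P 0.0286), from -0.57 and 0.09, and -0.615 for Psat1 (adjusted P 0.0373), from -1.06 and -0.44. These are edgeR values over 2 libraries per group. Cbs, Cebpg and Atf5 held when any 1 library was left out, whereas Sesn2, Shmt2 and Psat1 missed the threshold without vehicle replicate 2, CCM replicate 1, CCM replicate 2 or LA replicate 1 (adjusted P 0.0618 to 0.164).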

How the results depend on the processing

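Member calls kept their direction under each of the 19 alternatives in which the gene was tested. Cbs was not tested with at least 10 counts in every library. For members called in the reported fit of a comparison, and for Atf4, 750 values were set against the reported value. Of these 0 reversed, 662 stayed on the same side of the threshold, 82 lost it and 6 gained it. Gains by other members are not in this count. Alternatives that changed only the fold threshold kept the reported estimates, so those values could not reverse. With a log2 FC beyond 0.68, TCM against CCM called 8 members and 1331 genes over all. Beyond 1 it called 7 members, LA against vehicle 0, TCM against vehicle 8 and the difference between effects 1. Over all genes these were 760, 86, 668 and 634. LA against vehicle gave 3 calls by DESeq2 and 3 without a filter on low counts, against 327 and 656 over all genes. CCM against vehicle gave 6 without that filter and 2 with only the libraries compared, against 584 and 679. Without the filter 23234 genes were tested, and 12137 in the other settings named here.

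Leaving out each library in turn gave 8 to 13 calls for TCM against CCM (8 without CCM replicate 1), 0 to 2 for LA against vehicle (0 without vehicle replicate 1 or LA replicate 1, 2 without either TCM library), 0 to 1 for CCM against vehicle (1 without either TCM library), 8 to 15 for TCM against vehicle (8 without vehicle replicate 1) and 3 to 8 for the difference (3 without vehicle replicate 2, CCM replicate 1, CCM replicate 2 or LA replicate 1). In each case in parentheses the calls over all genes fell or rose with the member calls. A change particular to the members therefore cannot be read from these counts. The 2 moved apart in TCM against CCM without TCM replicate 2, with fewer members but more genes called. They also did so in the difference without vehicle replicate 1 or LA replicate 2, with more members but fewer genes. A group reduced to 1 library is assumed to vary like the others. In TCM against CCM the calls of Atf5, Nupr1, Sesn2 and Psat1 held under all 19 alternatives and that of Cbs under the 18 in which it was tested.

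The labels do not tie a replicate number to a shared culture or day, so the numbers were not taken as pairs. Deviations from the group means correlated at 0.353 between vehicle and LA, with 36 of 37 members of the same sign, at 0.112 between vehicle and TCM, at 0.106 between LA and TCM and at -0.242 between CCM and TCM, across genes, which are not independent replicates. With the replicate block, member calls were 13 for TCM against CCM, 2 for LA against vehicle (Nupr1 and Ddit3), 0 for CCM against vehicle, 16 for TCM against vehicle and 7 for the difference. Over all genes the calls were 2367, 356, 193, 2206 and 1316, against 2314, 310, 158, 2121 and 1268 in the reported fit. With the CCM numbers crossed, an alternative chosen after seeing the data, member calls were 14, 3, 3, 18 and 9. Over all genes they rose to 2675, 596, 457, 2477 and 1938.

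Without TMM factors, 30.5% of all calls in TCM against vehicle were higher (49.1% with them) and 23.2% in the difference (42.6% with them). Depth limits Fgf21, Cbs and Atf3 most.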
